A study of Mus musculus with 6 samples.

Results

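The 33 genes described here are 25 immediate-early genes and 8 heat shock genes, read from single-cell RNA sequencing of mouse pancreatic tumours. They were chosen by symbol from 32285 genes, and all 33 were present in each of the 6 count matrices. All mice of both groups had the same genotype, which includes P53LSL.R172H/+ and Pdx1-Cre. Cre made in the pancreatic lineage switches on mutant p53 there, while stromal, vascular and immune cells keep the unrecombined allele. For 2 days, 3 tumour-bearing mice received IPI-926, an inhibitor of the Hedgehog receptor component Smoothened, at 40 mg/kg daily by oral gavage. The other 3 received the vehicle, 5% hydroxypropyl-beta-cyclodextrin. Tumours were taken 2 h after the last dose and digested with enzymes at 37 °C for 42 min, and the cells were counted with a 3' unique molecular identifier (UMI) method. The labels give neither pairing nor batch and describe each library by its treatment only. Every p-value of IPI-926 against vehicle thus measures the spread between these libraries.

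Immediate-early genes are transcribed within minutes of a stimulus from factors already present in the cell, with no new protein needed. Fos and Jun proteins pair into the AP-1 transcription factor, EGR, NR4A and KLF proteins are further transcription factors of the same wave, and DUSP1, ZFP36 and SOCS3 shut down kinases, cytokine messages and cytokine receptors in turn. Heat shock genes are switched on by the factor HSF1 when proteins misfold, and encode chaperones. Both groups respond to growth factor and inflammatory signals and also to warm enzymatic digestion. All 6 tumours were digested in the same warm step and no undigested tissue was analysed here, so handling and signalling within the tumour cannot be told apart in these libraries.

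The 6 libraries held 100810942 to 174929328 UMIs each and 6184 to 14156 cells after filtering and removal of predicted doublets, with median UMIs per cell of 4349.5 to 7719.5 in the vehicle libraries and 2645 to 3955 in the IPI-926 libraries. Of 35 clusters, all but 10 could be named from standard markers, and 10 of the named classes held enough cells to test; the unnamed clusters with 12564 of the 49797 cells stayed unnamed. Any pair of libraries shared 14 to 59 cell barcodes. IPI-926 library 3 stood apart, with clusters of its own. They made up 96.46% of its fibroblasts (cluster 32), 54.61% of its T cells (cluster 31) and 37.65% of its macrophages and monocytes (cluster 27). Summed acinar marker counts were lower in every IPI-926 library than in every vehicle library in 8 of the 10 classes, for example 28.64 to 191.9 against 250.1 to 1209 CPM (UMIs of the markers scaled to a fixed total per class and library) in neutrophils. In the same cells 13 of 14 acinar markers had the lower mean with IPI-926 and 1, Amy2a5, was at 0. The part of acinar RNA in the results below was not tested.

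The promoters of the members the results turn on are shown first, because the 2 groups of genes are read by different factors. Of the 33 members, 27 had an entry in the RefSeq promoter table for GRCm38.p6, which spans 250 bases before to 50 bases after each start. Heat shock factor binds inverted GAA units, searched as GAANNTTC, which is its own reverse complement. It stood in the window of 5 of the 6 heat shock members with an entry (Hspa1a, Hspa1b, Hspb1, Hsph1 and Dnaja1), in 2 of 21 immediate-early members (Fosl2 and Jun), and in 7.86% of all 32851 promoters. The longer form with a further GAA unit, GAANNTTCNNGAA, was found on either strand in Hsph1 alone among the members searched and in 0.603% of all promoters. Below are the 250 bases before the start, 5′ to 3′ on the gene's strand, with GAANNTTC in capitals; the inducible HSP70 genes Hspa1a and Hspa1b differ there at 3 of 250 bases.
Hspa1a, chr17:34972157-34972406, minus strand: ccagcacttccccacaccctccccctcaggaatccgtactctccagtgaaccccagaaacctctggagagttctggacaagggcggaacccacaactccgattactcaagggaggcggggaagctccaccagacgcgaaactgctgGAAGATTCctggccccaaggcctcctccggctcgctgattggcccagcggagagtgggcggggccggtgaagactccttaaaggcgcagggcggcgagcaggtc
Hspa1b, chr17:34959239-34959488, minus strand: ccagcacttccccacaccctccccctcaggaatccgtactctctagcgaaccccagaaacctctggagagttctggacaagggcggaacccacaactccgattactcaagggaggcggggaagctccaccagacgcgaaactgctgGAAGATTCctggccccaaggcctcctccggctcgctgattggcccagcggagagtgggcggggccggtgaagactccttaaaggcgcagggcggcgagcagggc
Hspb1, chr5:135887669-135887918, plus strand: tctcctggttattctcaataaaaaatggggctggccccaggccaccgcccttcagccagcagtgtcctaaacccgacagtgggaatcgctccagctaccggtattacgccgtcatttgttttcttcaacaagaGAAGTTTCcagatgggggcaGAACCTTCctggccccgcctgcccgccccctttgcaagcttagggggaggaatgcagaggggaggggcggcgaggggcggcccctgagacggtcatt

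Immediate-early promoters are read by CREB at the cAMP response element and by serum response factor at the CArG box. The core TGACGT was searched on both strands and overlaps the full element. It stood in 6 of the 21 immediate-early members searched (Fos, Atf3, Btg2, Dusp1, Egr2 and Nr4a3), in none of the 6 heat shock members and in 7.51% of all promoters. The full element TGACGTCA was present in Btg2 and Dusp1, against 1.79% of all promoters. A CArG box was present in Egr2 and Zfp36, against 1.63%, and the AP-1 site TGANTCA stood in the window of no member searched, against 7.81%. The absence of a match says only that these letters are not in this window. In the 3 sequences below capitals mark TGACGT in Fos, TGACGT and TGACGTCA in Dusp1, and the CArG box in Zfp36.
Fos, chr12:85473640-85473889, plus strand: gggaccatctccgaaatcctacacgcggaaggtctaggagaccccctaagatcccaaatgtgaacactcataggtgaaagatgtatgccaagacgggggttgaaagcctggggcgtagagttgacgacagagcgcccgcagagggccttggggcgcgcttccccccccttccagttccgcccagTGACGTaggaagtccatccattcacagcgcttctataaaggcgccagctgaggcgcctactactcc
Dusp1, chr17:26508473-26508722, minus strand: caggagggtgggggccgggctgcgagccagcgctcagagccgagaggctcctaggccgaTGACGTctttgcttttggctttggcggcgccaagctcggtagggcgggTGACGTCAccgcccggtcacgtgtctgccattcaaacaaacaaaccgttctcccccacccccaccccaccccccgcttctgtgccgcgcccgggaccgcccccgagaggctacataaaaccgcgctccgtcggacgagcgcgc
Zfp36, chr7:28379229-28379478, minus strand: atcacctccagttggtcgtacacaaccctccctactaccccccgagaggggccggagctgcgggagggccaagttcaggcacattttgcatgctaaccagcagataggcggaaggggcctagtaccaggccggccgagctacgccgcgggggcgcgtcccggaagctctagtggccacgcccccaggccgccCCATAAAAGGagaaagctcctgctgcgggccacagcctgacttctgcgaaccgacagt

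The share of all UMIs taken by the members differed more between cell classes than between libraries. In neutrophils the 25 immediate-early genes took 1.181%, 1.822% and 1.925% of UMIs in vehicle libraries 1 to 3, and 1.747%, 1.943% and 3.237% in IPI-926 libraries 1 to 3. Among the 10 tested classes, neutrophils had the highest immediate-early share in each of the 6 libraries. The mean over libraries was 1.976% ± 0.679 (SD, n = 6) in neutrophils and 1.05% ± 0.168 (SD, n = 6) in macrophages and monocytes, and among the tested classes it was lowest in T cells at 0.694% ± 0.245 (SD, n = 6). For the 8 heat shock genes the order of the tested classes was different: mesothelial cells had the highest share, 0.539% ± 0.103 (SD, n = 6), and neutrophils the lowest, 0.19% ± 0.0388 (SD, n = 6), and this held among these 10 classes in each of the 6 libraries. Plasma cells, too few to test, had lower shares in the 3 libraries with enough cells, 0.48% ± 0.0432 for immediate-early and 0.0822% ± 0.0211 for heat shock genes (SD, n = 3). In mesothelial cells Hspb1 had the highest mean level of the 8 heat shock genes, 2512 CPM on scaled library sizes, ahead of Hspa8 at 1384. By the test between classes below, Hspb1 was the only 1 of the 8 that was higher there. The mesothelial rank is thus not a trait of the whole list. Over the 9 classes that every library filled, class accounted for 57.1% of the sum of squares of the log2 immediate-early share and library for 11.4%. The remaining 31.5% were differences between libraries that the classes did not share. For the heat shock share these were 70.3% and 16.2%.

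**Figure D1:**
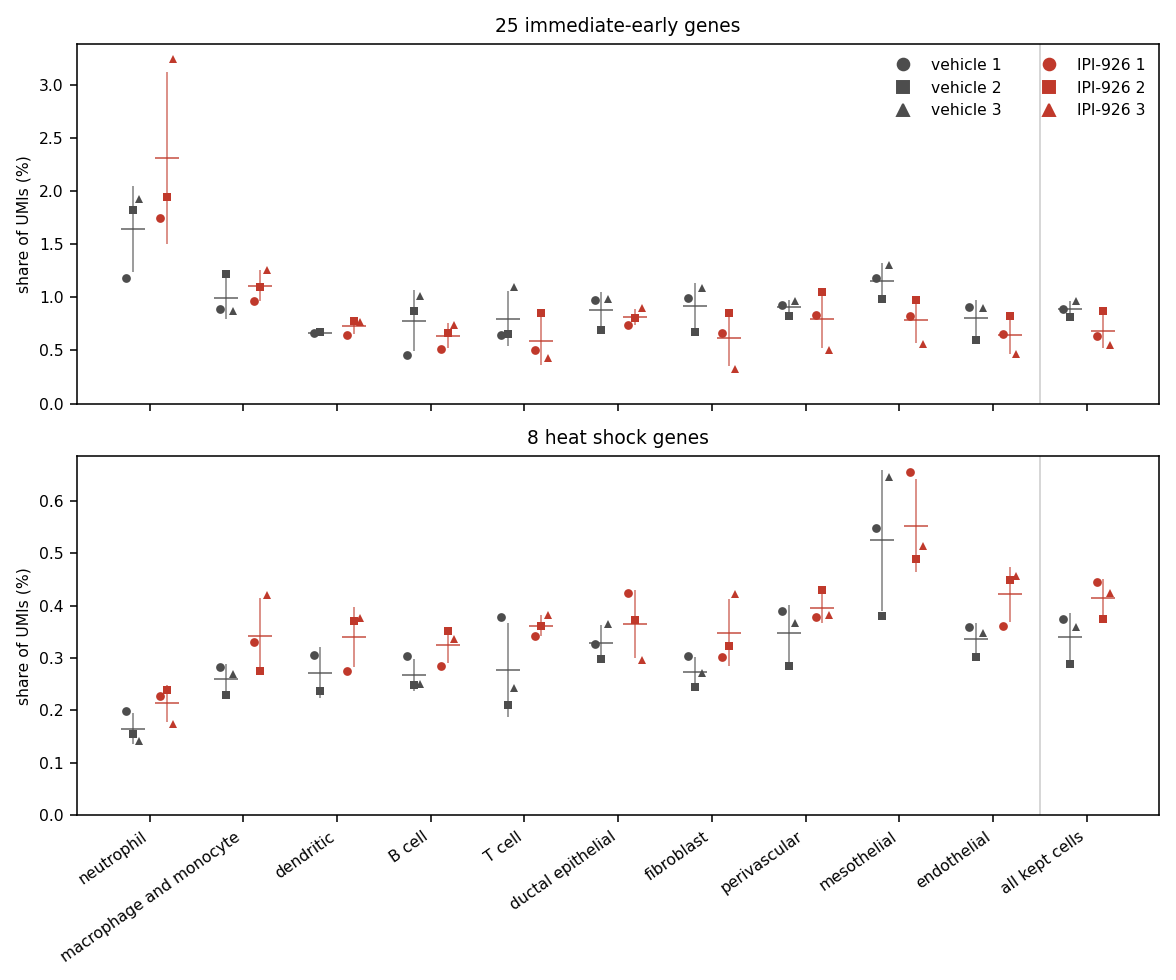
Share of UMIs (%) taken by the 25 immediate-early genes (top) and the 8 heat shock genes (bottom) in each of the 10 tested cell classes and in all kept cells; each point is a library, horizontal marks are group means and vertical lines their SD. Among these classes neutrophils lie highest for immediate-early genes, up to 3.237%, and lowest for heat shock genes, and the vehicle and IPI-926 points overlap in most classes.

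Each class was then compared with the mean of the other 9 classes within libraries, using edgeR's quasi-likelihood test with library as a block. Its p-values measure the spread of the class sums that is left after the library block, and the sums of a library are treated as separate. The members were left out of the genes that set the clusters, but the classes were set from these same cells. Neutrophils had 22 of 25 immediate-early members higher and 2 lower at an adjusted p under 0.05, where 31.5% of the 13791 genes tested were higher and 29.0% lower; the median log2 difference was 1.37 for the members and -0.10 for all genes. Macrophages and monocytes had 17 of 25 higher and none lower, against 31.1% and 19.5% of all genes. In endothelial cells 2 were higher and 17 lower (24.6% and 22.9% of all genes), in T cells 4 and 14 (23.9% and 22.4%), in fibroblasts 7 and 14 (31.0% and 25%) and in perivascular cells 2 and 11 (22.4% and 19.7%). B cells had 7 higher and 11 lower (19.4% and 22.8%), ductal epithelial cells 5 and 11 (33.9% and 23.7%), dendritic cells 10 and 4 (22.4% and 18.4%), and mesothelial cells 9 and 7 (32.2% and 23.8%).

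Scaling by library size alone moved the median of all genes by -0.39 in neutrophils to 0.32 in endothelial cells. The neutrophil count was then 18 higher and 3 lower, the macrophage count 13 and 1, and the endothelial count 2 and 11. Under it the share of higher members moved by more than 10 percentage points in dendritic cells (6 higher, 7 lower), ductal cells (8 and 11), mesothelial cells (9 and 3) and perivascular cells (5 and 5), so no direction is read from the immediate-early counts of those 4 classes.

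Among AP-1 members, Junb, which encodes a Jun protein of lower activating strength, was set apart by neutrophils. Its level there was 4322 ± 1095 scaled CPM (SD, n = 6), that is, CPM in the class on scaled library sizes, and the ranges of mean ± SD did not overlap with the next class, T cells at 1672 ± 661 (SD, n = 6). Fosl2, a Fos relative, was also higher in neutrophils, by 2.47 on the log2 scale (SE 0.129). Fos itself gave no such order: perivascular cells (1451 ± 670), neutrophils (1424 ± 1626), mesothelial (1388 ± 649) and ductal cells (1376 ± 375) overlapped, and every further neighbour down to T cells (473 ± 267, SD, n = 6) overlapped too. Atf3, a stress-induced AP-1 partner, was higher in ductal cells by 1.62 (SE 0.21) and lower in T cells by -2.19 (SE 0.313). Fosl1, the Fos relative known from epithelial tumours, was higher in ductal cells by 2.41 (SE 0.326). It was also higher in fibroblasts by 1.85 (SE 0.352), mesothelial cells by 1.52 (SE 0.365) and neutrophils by 1.38 (SE 0.426). Its mean levels in fibroblasts (24.3 ± 38.4 scaled CPM) and ductal cells (21.5 ± 3.48, SD, n = 6 each) overlapped. Jun was higher in mesothelial cells by 0.88 (SE 0.185).

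NR4A genes encode orphan nuclear receptors, and all 3 had a positive log2 difference in dendritic cells and a negative one in ductal cells. Nr4a3 was higher in dendritic cells by 2.82 (SE 0.201) and in T cells by 1.71 (SE 0.209) on the log2 scale, and lower in ductal cells by -3.79 (SE 0.307). Its levels were 300.7 ± 148 scaled CPM in dendritic cells (SD, n = 5) and 4.91 ± 1.63 in ductal cells (SD, n = 6), the latter apart from the next class, endothelial cells. Nr4a2 had the same signs, 2.06 (SE 0.208) in dendritic and -1.95 (SE 0.26) in ductal cells. So had Nr4a1, at -1.04 (SE 0.207) in ductal cells and 0.35 (SE 0.206) in dendritic cells, where it did not pass (edgeR adjusted p = 0.1798). Among EGR factors, Egr2 was higher in macrophages by 1.74 (SE 0.199) and lower in endothelial cells by -2.52 (SE 0.315), Egr3 was higher in B cells by 1.47 (SE 0.22), and Egr1, the serum-inducible zinc finger factor, was higher in neutrophils by 1.33 (SE 0.196) and lower in T cells by -1.69 (SE 0.263).

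The KLF factors split by class. Klf4 was higher in mesothelial cells by 1.17 (SE 0.155) and lowest in neutrophils, where 73 ± 23 scaled CPM (SD, n = 6) lay apart from the next class, perivascular cells, and the log2 difference was -1.98 (SE 0.212). Klf2, known as a flow-induced factor of endothelium, was higher in endothelial cells by 0.92 (SE 0.182) but also in neutrophils by 1.97 (SE 0.169), and Klf6 was higher in neutrophils by 1.67 (SE 0.117). Within neutrophils, Klf4 thus had the opposite sign to Klf2 and Klf6.

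Of the feedback genes, 5 were higher in neutrophils by more than 2.5 on the log2 scale. Ier3, a survival gene induced by NF-kB, was higher there by 3.29 (SE 0.156), Zfp36, whose protein destabilises cytokine messages, by 3.04 (SE 0.149), and Socs3, an inhibitor of cytokine receptors, by 2.86 (SE 0.168). Dusp1, the phosphatase that turns off stress-activated MAP kinases, was higher by 2.58 (SE 0.131) and Btg2, an antiproliferative gene, by 2.55 (SE 0.144). Zfp36 stood at 1254 ± 732 scaled CPM in neutrophils and at 353.9 ± 132.3 in macrophages (SD, n = 6 each), with no overlap of mean ± SD. Ier3 was lower in B cells by -3.52 (SE 0.311) and T cells by -2.63 (SE 0.262). Rhob, which encodes a small GTPase, was higher in endothelial cells by 1.34 (SE 0.15) and perivascular cells by 1.25 (SE 0.157), and lower in dendritic cells by -2.34 (SE 0.244).

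Among heat shock members, Hspb1, which encodes the small chaperone HSP27, had the widest range between classes of all 33 members. Its level was 2512 ± 1024 scaled CPM in mesothelial cells, 750.2 ± 293.5 in perivascular cells, 551.5 ± 138.9 in fibroblasts and 356.7 ± 114.1 in endothelial cells (SD, n = 6 each), and 6.28 ± 5.07 in dendritic cells (SD, n = 5). Mesothelial cells lay apart from perivascular cells, the log2 difference from the other classes was 5.17 (SE 0.158), and macrophages (-3, SE 0.272) and dendritic cells (-4.13, SE 0.373) were lower. Hspa1a, an HSP70 induced by stress, was higher in perivascular cells by 1.33 (SE 0.251), at 195.3 ± 47.4 scaled CPM, and Hspa1b was higher in ductal cells by 1.29 (SE 0.239). Hspa8, the HSP70 made without stress, was lowest in neutrophils, 690.3 ± 148.5 scaled CPM (SD, n = 6), apart from the next class.

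The heat shock members were counted in the same way, against the shares of all genes given above for each class. In ductal cells 4 of 8 were higher and none lower. Of 8 members, 3 were higher and 3 lower in B cells, 2 and 2 in T cells, 2 and 3 in neutrophils, 3 and 1 in endothelial cells and 2 and 1 in perivascular cells. In fibroblasts 1 was higher and 2 were lower, in macrophages 1 and 2, and in dendritic and mesothelial cells 1 and 1. Over all genes 19.4% to 33.9% were higher and 18.4% to 29.0% lower, and with 8 members a count of 1 to 3 is not read as a departure from that background. With scaling by library size the counts were 7 and 0 in ductal cells, 2 and 3 in B cells, 0 and 5 in neutrophils, 3 and 0 in perivascular cells, 1 and 1 in fibroblasts, 1 and 5 in macrophages and 1 and 2 in dendritic cells.

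**Figure D2:**
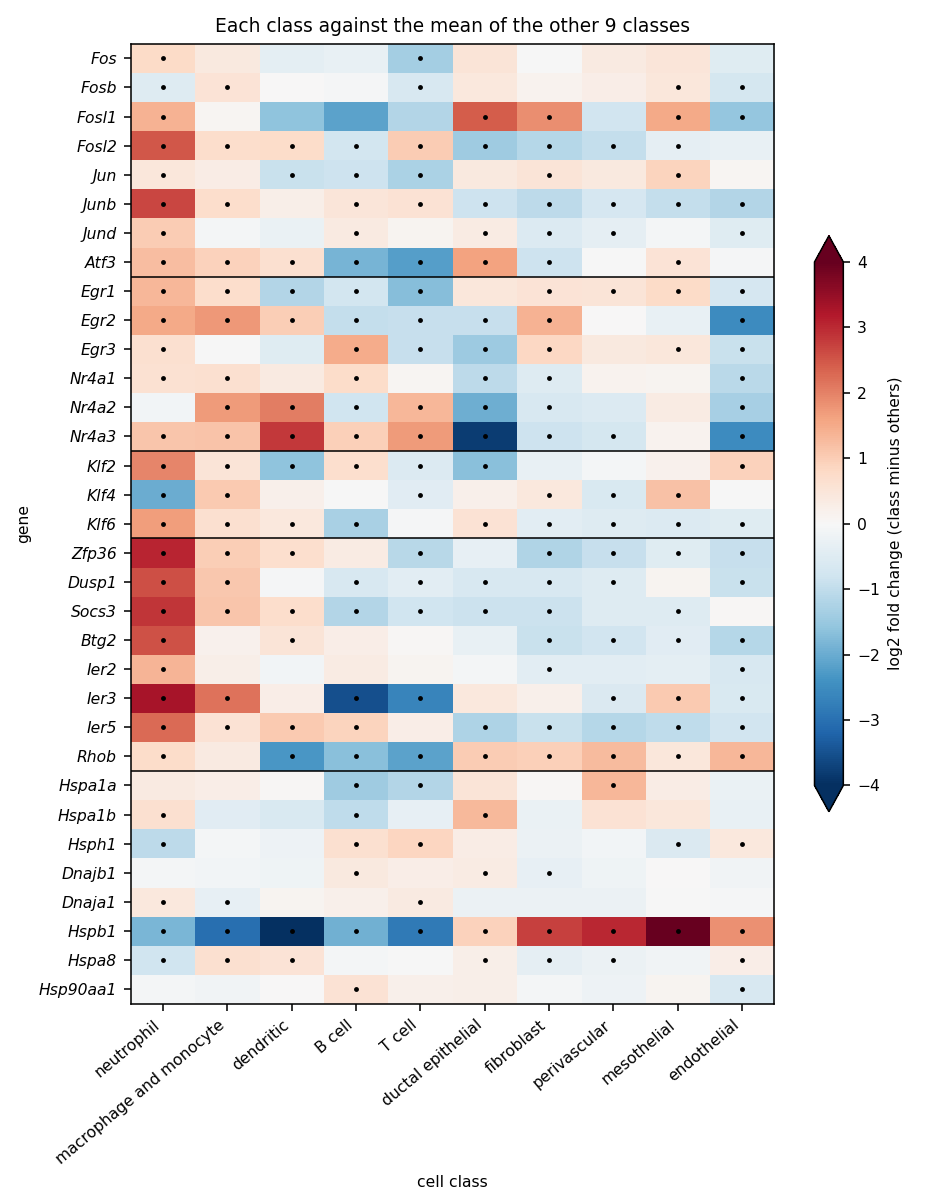
Log2 fold change of each member (rows, grouped by role with lines between AP-1, EGR and NR4A, KLF, feedback and heat shock genes) in each cell class against the mean of the other 9 classes; dots mark an edgeR adjusted p under 0.05. The neutrophil column is red for 22 of 25 immediate-early members, and the Hspb1 row changes from -4.13 in dendritic to 5.17 in mesothelial cells.

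The comparison of IPI-926 with vehicle asks what Smoothened inhibition does to each cell class over 2 days. As a check of the drug, the Hedgehog target Gli1 was read in fibroblasts, the cells that receive the tumour's Hedgehog ligand. Gli1 stood at 10.59, 10.97 and 10.56 scaled CPM in vehicle libraries 1 to 3 and at 0.4265, 1.634 and 0.1555 in IPI-926 libraries 1 to 3. The treated values rest on 3, 2 and 11 UMIs. All 3 treated libraries lay below all 3 vehicle libraries, and edgeR gave -4.83 for the log2 fold change (SE 0.82, adjusted p = 0.8715). Ptch1, the Hedgehog receptor gene and target, stood at 40.43, 15.28 and 30.18 with vehicle and at 8.246, 10.62 and 2.927 with IPI-926 (log2 fold change -2.08, SE 0.587, edgeR adjusted p = 0.8715). DESeq2 called Gli1 in the same sums (adjusted p = 9.702e-05) and edgeR did not.

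No member passed the test of IPI-926 against vehicle in any of the 10 classes or in all kept cells. By edgeR the count of members called was 0 of 33 in all kept cells, where 0.0% of 17865 genes were called; it was 0 in each class, where the percentage of all genes called was 0.0118% in neutrophils, 0.014% in T cells and 0.0362% in B cells, in each case the single gene Gkn2, and 0.0% in the other 7 classes. DESeq2 and limma-voom called 0 members as well, in all 10 classes, and DESeq2 also in all kept cells. Members with an unadjusted p under 0.05 by edgeR numbered 2 in all kept cells, 0 in B cells, 3 in T cells, 2 in dendritic cells, 1 in ductal cells, 3 each in endothelial cells and fibroblasts, 4 each in macrophages and mesothelial cells, 10 in neutrophils and 2 in perivascular cells. The share of all genes with such a p was 4.68% in neutrophils, 4.25% in fibroblasts, 3.78% in all kept cells, 3.57% in endothelial, 3.56% in mesothelial, 2.85% in ductal, 2.59% in perivascular, 2.3% in dendritic, 2.1% in B, 1.84% in macrophage and 1.76% in T cells. The smallest adjusted p of any member was 0.8715 by edgeR, in fibroblasts, and 0.09965 by DESeq2, for Fosl1 in fibroblasts.

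In all kept cells together the immediate-early share was 0.888%, 0.817% and 0.967% with vehicle and 0.633%, 0.87% and 0.549% with IPI-926; the groups overlapped, and the ratio of means was 0.768, or -0.38 on the log2 scale and -0.24 without IPI-926 library 3. Taken as a mean over cells, the log2 ratio was -0.12. The heat shock share was 0.374%, 0.289% and 0.359% with vehicle and 0.444%, 0.374% and 0.423% with IPI-926, a ratio of 1.22, again with overlap. Cell composition enters these sums, so fewer cells of a class and less RNA per cell cannot be told apart in them. The median log2 fold change was -0.27 over the 25 immediate-early members (4 positive, 21 negative) and 0.35 over the 8 heat shock members (6 positive, 2 negative), and 0.04 over all genes.

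Fos stood at 1189, 878.2 and 1791 scaled CPM with vehicle and at 598.5, 1070 and 524.1 with IPI-926 in all kept cells (log2 fold change -0.81, SE 0.389, edgeR adjusted p = 0.9994). IPI-926 library 2 lay within the vehicle range and the other 2 below it. Egr1 stood at 696.8, 604.1 and 621.7 with vehicle and at 385.4, 582.5 and 308.7 with IPI-926, so the groups did not overlap (-0.59, SE 0.281). Fosb, which encodes another AP-1 subunit, was the other immediate-early member with all treated libraries lower (-0.77, SE 0.404), and Ier5, a regulator of HSF1, the only one with all of them higher (0.66, SE 0.279). Every treated library was lower for 2 of 33 members and 4.19% of all genes, and higher for 4 of 33 members and 3.07% of all genes.

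The remaining immediate-early members chosen for their level overlapped between groups in all kept cells. Jun stood at 1076, 526.5 and 823.9 with vehicle and at 582.1, 820.1 and 630.3 with IPI-926, and Atf3 at 593.1, 308.3 and 838.9 and at 312.5, 561.3 and 165.3. For Atf3 the lowest library was IPI-926 library 3 and the highest vehicle library 3. Junb stood at 670.5, 947.6 and 799.3 with vehicle and at 757.1, 908.3 and 508.7 with IPI-926; its log2 fold change was -0.15 and became 0.04 without IPI-926 library 3. Jund, the AP-1 member made in resting cells, stood at 626.6, 425.5 and 800.7 with vehicle and at 509.4, 649.4 and 376.4 with IPI-926. Ier3 stood at 509.8, 431 and 604.6 with vehicle and at 651, 615.5 and 413.5 with IPI-926, and its log2 fold change of 0.12 became -0.01 without vehicle library 2.

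Among heat shock members, 3 of 8 had every IPI-926 library above every vehicle library in all kept cells. Hspa1b stood at 59.54, 40.77 and 98.44 scaled CPM with vehicle and at 150.9, 123.3 and 102.4 with IPI-926 (log2 fold change 0.92, SE 0.362), the smallest p of any member there (edgeR adjusted p = 0.9994). Hspa1a stood at 70.74, 45.93 and 80.75 and at 91.61, 119 and 105.5 (0.68, SE 0.269). Hsp90aa1, the stress-inducible HSP90, stood at 814, 823.2 and 639.5 with vehicle and at 1785, 880.9 and 1113 with IPI-926 (0.73, SE 0.31), with IPI-926 library 1 far above the rest. The highest Hsp90aa1 level in any tested class and library was 1330, in fibroblasts. Unnamed cluster 25 held 773 cells of IPI-926 library 1, at a median of 50196 UMIs and a heat shock share of 0.558%. The part of unnamed cells in these sums was not tested. Hspa8 overlapped: 1509, 1229 and 1929 with vehicle, 1779, 1649 and 2050 with IPI-926. Dnaja1, an HSP40 co-chaperone, overlapped as well, at 423.4, 341.6 and 414.9 against 346.8, 459.5 and 415.3. Hspb1 stood at 640.8, 148.2 and 377.5 with vehicle and at 256.3, 271.5 and 481.6 with IPI-926, and its log2 fold change of -0.21 became 0.34 without vehicle library 1.

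**Figure D3:**
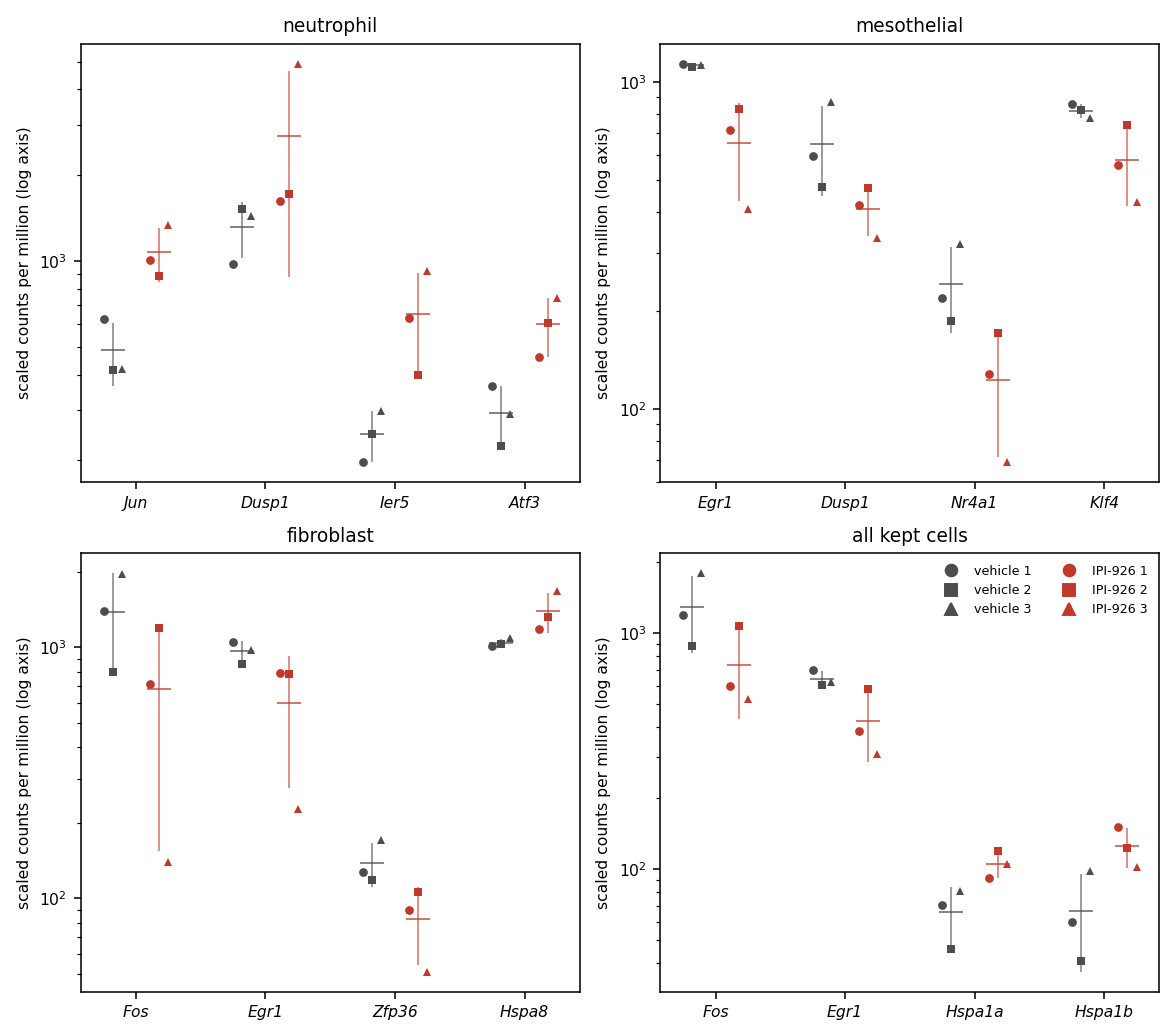
Scaled CPM (log axis) of 4 members each in neutrophils, mesothelial cells, fibroblasts and all kept cells; each point is a library, horizontal marks are group means and vertical lines their SD. The 3 vehicle values of Egr1 in mesothelial cells lie together between 1110 and 1135 above all IPI-926 values, while Fos in fibroblasts spreads from 139.3 to 1193 within IPI-926.

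Mesothelial cells, which line the surface of the pancreas, were the only class of the 10 in which the immediate-early share did not overlap between groups. It was 1.176%, 0.982% and 1.306% with vehicle and 0.822%, 0.975% and 0.556% with IPI-926, a ratio of 0.679, with IPI-926 library 2 just under vehicle library 2. Every treated library was lower for 7 of 33 members, all of them immediate-early: Egr1, Nr4a1, Nr4a3, Klf4, Fosb, Fosl2 and Dusp1. Over all genes tested this share was 5.27%. No member had every treated library higher, against 4.02% of all genes. The median over the 25 immediate-early members was -0.34, with 20 negative, and -0.00 over all genes.

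Egr1 had the smallest p there: 1135, 1110 and 1126 scaled CPM with vehicle and 714.4, 823.9 and 407.6 with IPI-926 (log2 fold change -0.79, SE 0.272, edgeR adjusted p = 0.9998). Nr4a1, an orphan nuclear receptor gene induced along with Egr1, stood at 217.8, 185.7 and 320.6 and at 128.3, 171 and 68.84 (-0.98, SE 0.368), and Dusp1 at 593.3, 478.7 and 867.1 and at 421, 474.6 and 333.6 (-0.66, SE 0.268). For Nr4a1 and Dusp1 IPI-926 library 2 again came close to vehicle library 2. Klf4 stood at 854.5, 820.8 and 774 with vehicle and at 556.8, 740.2 and 428.6 with IPI-926 (-0.50, SE 0.232). IPI-926 library 3 was the lowest for each of these 4 genes, and the log2 ratio of the immediate-early share was -0.56 with it and -0.36 without it. Hspb1, the gene that marks this class among the heat shock members, stood at 2534, 1179 and 3899 with vehicle and 3497, 1927 and 2034 with IPI-926, with full overlap.

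In fibroblasts the immediate-early share was 0.988%, 0.677% and 1.084% with vehicle and 0.666%, 0.847% and 0.327% with IPI-926. The low value belonged to IPI-926 library 3, where the share was 0.326% in its own cluster 32 and 0.382% in its 61 cells of cluster 15, the cluster that held the fibroblasts of the other 5 libraries at 0.666% to 1.084%. Fos followed the same pattern, at 1394, 798.3 and 1970 scaled CPM with vehicle and 712.4, 1193 and 139.3 with IPI-926. Every treated library was lower for Zfp36, Socs3, Nr4a1 and Egr1, 4 of 33 members against 5.61% of all genes, and higher for Hspa8 alone, 1 of 33 against 4.18%. The median log2 fold change over immediate-early members was -0.45 with all libraries and -0.23 without IPI-926 library 3.

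Fosl1 went the other way in fibroblasts and had the smallest p of the members there. It stood at 9.146, 5.782 and 1.94 scaled CPM with vehicle and at 19.76, 7.352 and 101.8 with IPI-926 (log2 fold change 3.03, SE 1.038, edgeR adjusted p = 0.8715). The groups overlapped and the high value came from IPI-926 library 3; over the alternatives the log2 fold change ranged from 1.18 to 3.52. Hspa8 stood at 1012, 1028 and 1090 with vehicle and at 1186, 1325 and 1672 with IPI-926 (0.42, SE 0.211). Summed ductal markers in fibroblasts were 399.3 to 1997 CPM with vehicle and 147.7 to 369.4 with IPI-926, lower in mean for 15 of 16 markers with none at 0; their part in these values was not tested.

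Nr4a2, a nuclear receptor gene of the NR4A family, lay below the vehicle range in endothelial and perivascular cells. In endothelial cells it stood at 76.23, 41.24 and 51.44 scaled CPM with vehicle and at 41.05, 35.4 and 29.53 with IPI-926 (log2 fold change -0.67, SE 0.257, edgeR adjusted p = 0.9833), and the alternatives ran from -0.97 to -0.39. In perivascular cells it stood at 92.75, 89.63 and 90.53 and at 66.44, 56.97 and 52.35 (-0.61, SE 0.232, edgeR adjusted p = 0.9997). It was the member of smallest p in both classes, and the groups did not overlap in either. Every treated endothelial library was lower for Nr4a2 and Zfp36 (2 of 32 members, 5.61% of all genes) and higher for Hspa8 (1 of 32, 4.6%). Every treated perivascular library was lower for Nr4a2 and Rhob (2 of 32, 3.6% of all genes) and higher for none (3.8%).

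The endothelial heat shock share was the only heat shock share of the 10 classes without overlap between groups: 0.36%, 0.302% and 0.347% with vehicle and 0.361%, 0.448% and 0.456% with IPI-926. Vehicle library 1 and IPI-926 library 1 were nearly equal. Hspa8 stood at 1947, 1626 and 1773 scaled CPM with vehicle and at 2018, 2540 and 2502 with IPI-926 in endothelial cells (log2 fold change 0.40, SE 0.167). All 8 heat shock members had a positive log2 fold change there, with a median of 0.41 against -0.01 over all genes, and all 8 stayed positive under each of the 15 alternatives run in that class. In other classes fewer heat shock members kept their sign throughout, such as 2 of 8 in ductal, 3 of 8 in mesothelial and 7 of 8 in neutrophil cells. Summed ductal markers were 534.8 to 1529 CPM with vehicle and 188.5 to 438.7 with IPI-926 in these cells, lower in mean for 14 of 16 markers with none at 0; their part in these values was not tested.

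Ductal epithelial cells are the named class in which tumour cells would lie. Unnamed clusters with ductal epithelial as their leading class by markers, such as cluster 25, were not part of it. Cluster 25 held 773 cells of IPI-926 library 1, 236 of IPI-926 library 2 and 81 to 383 of each vehicle library. The immediate-early share of the named ductal cells was 0.978%, 0.688% and 0.98% with vehicle and 0.737%, 0.809% and 0.896% with IPI-926, with overlap. The libraries filled different ductal clusters. IPI-926 library 1 had 56 ductal cells, 67.86% of them in cluster 18, IPI-926 library 2 had 95.61% in cluster 1, and IPI-926 library 3 had 92.29% in cluster 11, while 45.23% to 72.92% of the vehicle cells lay in cluster 1. Fos was the only member without overlap, at 1581, 1330 and 1952 scaled CPM with vehicle and 816.6, 1296 and 1280 with IPI-926 (log2 fold change -0.52, SE 0.256), that is 1 of 33 members lower throughout against 3.57% of all genes, and none was higher throughout, against 3.32%. Hspa1b had the smallest p, at 79.51, 87.25 and 106 with vehicle and 104.3, 222.9 and 153.2 with IPI-926 (0.82, SE 0.303, edgeR adjusted p = 0.9997), and over the alternatives the log2 fold change ran from 0.51 to 1.03. Only IPI-926 library 1 lay within the vehicle range. Hspa1a stood at 83.79, 69.33 and 84.06 and at 57.14, 193.6 and 119.4, with IPI-926 library 1 the lowest of all 6.

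Neutrophils gave the most members on the high side with IPI-926. Every treated library was higher for 10 of 33 members, the immediate-early genes Ier5, Atf3, Jun, Klf2, Rhob, Klf6, Dusp1 and Ier3 and the heat shock genes Hsph1 and Hspa1b, where 5.18% of all genes were higher. None of the 33 was lower in every treated library, against 6.93% of all genes. The median log2 fold change was 0.57 over the 25 immediate-early members (21 positive) and 0.67 over the 8 heat shock members (8 positive), and -0.02 over all genes. The immediate-early median was 0.35 without IPI-926 library 3 and 0.29 without vehicle library 1, and the log2 ratio of the immediate-early share was 0.49 with all libraries and 0.17 without IPI-926 library 3. With scaling by library size alone, which moved the median of all genes by -0.23 in this class and by -0.13 in T cells, the medians of the lists were 0.33 and 0.47. No member passed the test.

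Ier5 had the smallest p of the members in neutrophils. It stood at 197.3, 247.1 and 297.5 scaled CPM with vehicle and at 633.8, 399.3 and 919.3 with IPI-926 (log2 fold change 1.39, SE 0.379, edgeR adjusted p = 0.92). Over the alternatives the adjusted p ranged from 0.2201 to 0.9999 and the log2 fold change from 1.07 to 1.65. Jun stood at 625.1, 416.1 and 416.7 with vehicle and at 1012, 884.5 and 1336 with IPI-926 (1.15, SE 0.348). Atf3 stood at 365, 224.4 and 289.7 and at 461.6, 604.2 and 742.9 (1.04, SE 0.34). Klf2, Dusp1 and Hsph1, an HSP110 co-chaperone gene, had log2 fold changes of 1.40 (SE 0.453), 1.06 (SE 0.488) and 1.14 (SE 0.315). For Jun, Atf3, Klf2 and Dusp1 the highest library was IPI-926 library 3.

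Nearly all neutrophils lay in clusters 8, 9 and 19, in shares that differed between libraries. IPI-926 library 3 had 195 neutrophils, of which 87.69% lay in cluster 8, where its immediate-early share was 3.278% against 0.974% to 2.043% in the other 5 libraries; its Fos level in the class was 4666 scaled CPM against 381.2 to 1408. Its neutrophils had a median of 985 UMIs, the lowest of the 6 libraries. Cluster 9, led by the inflammatory genes Hcar2, Acod1, Ccl3 and Cxcl3, held 27.39% of the neutrophils of IPI-926 library 1 and 2.98% to 11.75% of those of the other 3 libraries with at least 20 cells in it. Jun stood at 1418 to 2169 CPM in cluster 9 in those 4 libraries. In cluster 8 Jun stood at 467.3, 314 and 243.7 CPM with vehicle and at 411.2, 606.9 and 1139 with IPI-926, so IPI-926 library 1 lay within the vehicle range there. In cluster 19 it stood at 652.7, 500 and 526.7 and at 649.2, 956.5 and 2104, with the same library again inside that range. Dusp1 also overlapped within clusters: in cluster 8 it stood at 802, 2027 and 1840 CPM with vehicle and at 1179, 1708 and 4827 with IPI-926, and in cluster 19 at 1067, 1685 and 1334 and at 1221, 1529 and 2525.

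Hspa1a and Hspa1b in neutrophils also differed between clusters and libraries. In cluster 8 every IPI-926 library lay above every vehicle library for both genes. The share of all genes that did so was not computed for clusters. The smallest libraries in cluster 8 were IPI-926 library 3, with 171 cells at a median of 987 UMIs, and vehicle library 1, with 208 at 1420. Hspa1a stood there at 16.84, 15.57 and 29.84 CPM with vehicle and at 38.86, 49.02 and 50.52 with IPI-926. Hspa1b stood there at 12.63, 31.14 and 29.84 and at 67.33, 41.89 and 56.13. In cluster 19 the groups overlapped for both genes, with 0 CPM in the 23 cells of IPI-926 library 3. In cluster 9 Hspa1a stood at 579.2 CPM in vehicle library 1 and 539 in IPI-926 library 1, and at 56.73 in vehicle library 2 and 46.64 in IPI-926 library 2. The high values in cluster 9 thus fell in a library of each group. Over the whole class Hspa1a stood at 64.04, 34.31 and 37.88 scaled CPM with vehicle and at 194.1, 66.61 and 48.1 with IPI-926 (log2 fold change 1.28, SE 0.507), and the groups overlapped.

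In macrophages and monocytes the immediate-early share was 0.886%, 1.221% and 0.871% with vehicle and 0.967%, 1.096% and 1.258% with IPI-926. Ier5 was the only member with every treated library higher, 1 of 33 against 3.03% of all genes, at 86.07, 131.3 and 113.8 scaled CPM with vehicle and 154.5, 139.8 and 373.7 with IPI-926 (log2 fold change 1.01, SE 0.417); none was lower throughout, against 2.38%. Hspa1b had the smallest p, at 17.01, 23.66 and 25.61 with vehicle and 84.69, 20.99 and 87.54 with IPI-926 (1.54, SE 0.526, edgeR adjusted p = 0.9996). IPI-926 libraries 1 and 3 were high and library 2 lay in the vehicle range, and Hspa1a showed the same pattern, at 38.37, 58.99 and 45.38 with vehicle and 84.55, 51.55 and 188.9 with IPI-926. In IPI-926 library 3, 58.92% of the macrophages and monocytes lay in cluster 13, led by Ly6c2, and 37.65% in cluster 27. The other libraries had 2.915% to 15.24% in cluster 13. Within cluster 13 the immediate-early share was 1.012%, 1.375% and 1.465% with vehicle and 1.156%, 1.515% and 1.39% with IPI-926, with overlap.

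Dendritic cells were compared with 2 vehicle libraries, since vehicle library 3 held 18 of them, under the minimum of 20. Ier3 had the smallest p there, at 271.8 and 137.2 scaled CPM with vehicle and 262.5, 442.8 and 462.6 with IPI-926 (log2 fold change 0.96, SE 0.375, edgeR adjusted p = 0.9999). It was 0.30 with the members among the clustering genes and 0.39 with doublets kept. Hspa8 was the only member with every treated library higher, at 1581 and 1329 with vehicle and 1646, 2254 and 2452 with IPI-926 (0.54, SE 0.266), that is 1 of 31 members against 8.24% of all genes; none was lower throughout, against 9.02%.

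In T cells Hspa8 and Egr3 were the members without overlap. Egr3, an EGR factor induced by antigen receptor signals, stood at 27.72, 36.82 and 42.07 scaled CPM with vehicle and at 23.87, 14.9 and 9.256 with IPI-926 (log2 fold change -1.15, SE 0.496, edgeR adjusted p = 0.9993). It was 1 of 32 members lower throughout, against 2.64% of all genes. Hspa8 stood at 1501, 880.3 and 1363 with vehicle and at 1726, 1823 and 2000 with IPI-926 (0.57, SE 0.338), 1 of 32 against 3.22%. The nearest libraries of the groups were close for Egr3, at 27.72 and 23.87, and its log2 fold change was -0.03 without the T cell cluster of IPI-926 library 3. Hspa1a had a log2 fold change of 1.96 (SE 0.861) that came from IPI-926 library 1, at 129.3 against 6.851 to 27.72 in the other 5 libraries. The immediate-early share of IPI-926 library 3 was 0.641% in the shared T cell cluster 22 and 0.36% in its own cluster 31.

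B cells had no tested member without overlap, against 3.18% of all genes higher and 2.79% lower. The smallest p among the 26 tested members was that of Hsph1, at 77.02, 90.14 and 40.33 scaled CPM with vehicle and 131.2, 145.5 and 89.34 with IPI-926 (log2 fold change 0.72, SE 0.397, edgeR adjusted p = 0.9997). Only IPI-926 library 3 lay within the vehicle range, just under vehicle library 2. The immediate-early share ran from 0.458% in vehicle library 1 to 1.011% in vehicle library 3, and every IPI-926 library lay between them.

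Across classes, the median log2 fold change of the heat shock members with IPI-926 was positive in each of the 10, from 0.10 in ductal to 0.67 in neutrophils, and that of the immediate-early members was negative in 7 and positive in neutrophils, dendritic cells and macrophages. The classes come from the same 6 libraries and are not separate replicates. Vehicle library 2 had the lowest heat shock share in 8 of 10 classes, and IPI-926 library 3 the lowest immediate-early share in 5 and the highest in 2. In all kept cells, too, vehicle library 2 had the lowest heat shock share and IPI-926 library 3 the lowest immediate-early share.

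**Figure D4:**
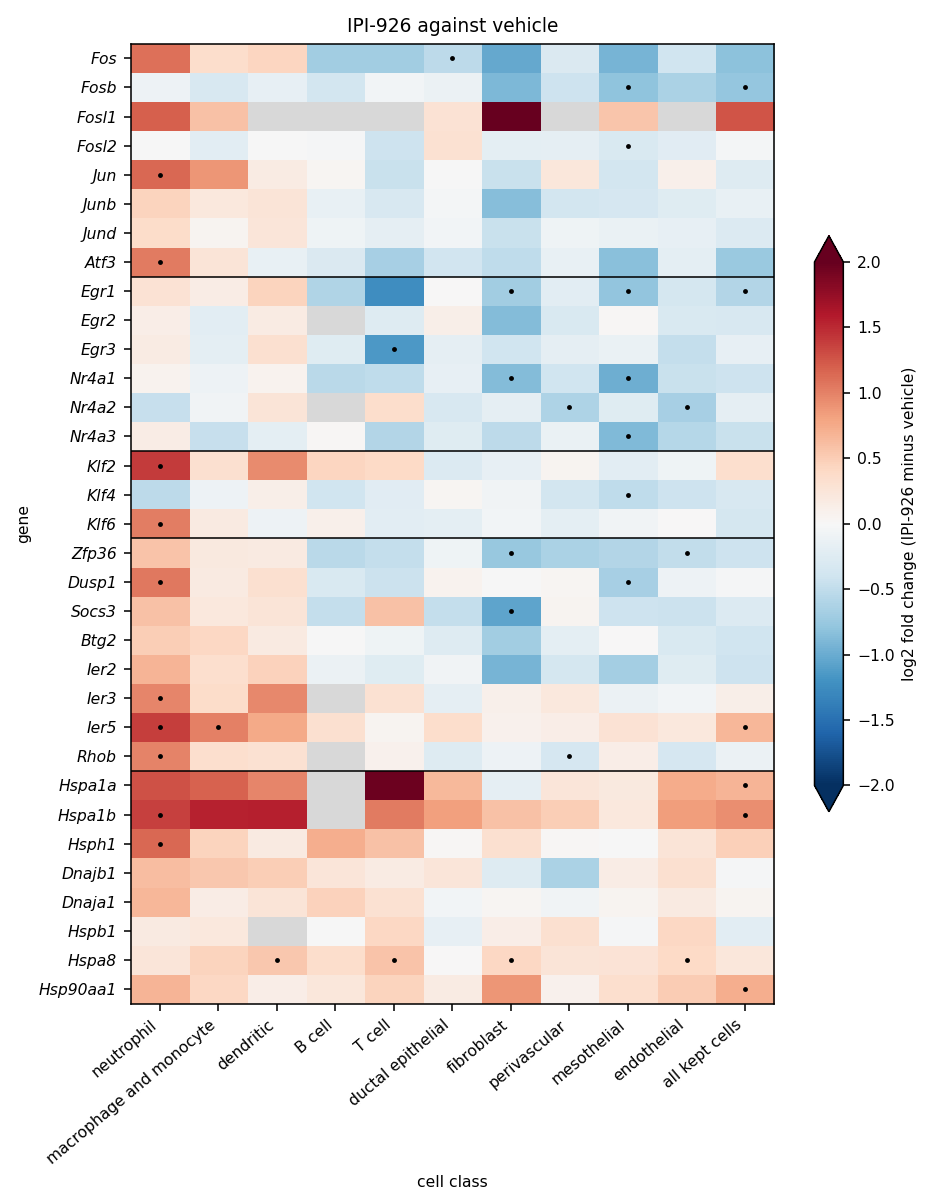
Log2 fold change (IPI-926 minus vehicle) of each member in each cell class and in all kept cells; dots mark members whose 3 IPI-926 libraries all lie above or all below every vehicle library, and grey marks members not tested. Dots are most frequent in neutrophils, all 10 of them on the high side, and in mesothelial cells, all 7 on the low side; no member passed the test.

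To describe how the members varied together, log2 levels were centred within each class and correlated over 59 points, each a class in a library; the points of a library share its depth and handling. The median correlation was 0.30 over the 300 pairs of immediate-early members, 0.36 over the 28 pairs of heat shock members and -0.05 over the 200 pairs across the lists. Single pairs ran from -0.48 to 0.86, from -0.22 to 0.77 and from -0.65 to 0.58 in the same order. Fos went with Ier2 (0.81), Fosb (0.66), Jun (0.64) and Egr1 (0.53), and not with Hspa1a (0.01) or Hspa1b (-0.27). It did not go with the immediate-early members Fosl1 (-0.3), Egr2 (-0.04) or Nr4a2 (-0.01) either. With the heat shock members Dnajb1 and Hspb1 it had 0.3 and 0.25. Hspa1a and Hspa1b went together at 0.77, but they are known as close paralogs whose reads counting can split, so the value of each is uncertain; their transcripts were not compared here.

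Of the other genes of these pathways, none passed the test in any class. These lists were 21 MAP kinase feedback and serum response genes, 18 further HSF1 targets and chaperones, 16 early NF-kB targets, 11 integrated stress and GADD genes and 16 other genes raised by tissue dissociation, counted by edgeR. In neutrophils the dissociation genes were positive for 16 of 16 with a median log2 fold change of 0.50, the NF-kB targets for 15 of 15 tested with 0.35 and the integrated stress genes for 10 of 10 tested with 0.60, against -0.02 over all genes. The other HSF1 targets did not lean either way there, with 7 positive and 7 negative of 14 tested and a median of 0.01. Ddit3, the stress factor CHOP, had the smallest p there (1.43, SE 0.428). In fibroblasts the HSF1 targets were positive for 16 of 18 with a median of 0.26, and Cryab, the small chaperone alpha-B crystallin, had the smallest p (1.80, SE 0.37, edgeR adjusted p = 0.8715). Cryab was also the HSF1 target of smallest p in mesothelial (0.87, SE 0.237) and endothelial cells (1.28, SE 0.485). In T cells the HSF1 targets were positive for 16 of 16 tested with a median of 0.35 against 0.03 over all genes, and in ductal cells for 5 of 18 with -0.14.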

How the data were processed

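The authors deposited unnormalized UMI counts, a matrix for each library; per the submitters' processing notes Cell Ranger 2.1.1 and mm10 were used, while the file headers name cellranger 6.1.2. The 62905 deposited barcodes were kept at 500 or more UMIs, 300 or more genes and at most 20% mitochondrial counts, and predicted doublets were removed at 0.8% per 1000 barcodes. Cells were clustered with scanpy 1.11.5 (Python 3.11.15) on 2000 variable genes and 30 principal components, with Leiden resolution 1 and 15 neighbours; the 33 members and sex-linked genes were left out. Clusters were named from standard markers. Counts were summed per library and class (20 or more cells) and tested with edgeR 4.0.16 (quasi-likelihood, TMM scaling, low-count filter, Benjamini-Hochberg over all genes, threshold 0.05) in R 4.3.3; TMM factors ran from 0.88 to 1.19. Scaled CPM are CPM on TMM-scaled library sizes. DESeq2 1.42.0, limma-voom (limma 3.58.1), no filter, library-size scaling, stricter cell filters, doublets kept, equal cells, the members among the clustering genes, and leaving out each library were alternatives. The fits were tested on simulated data. For IPI-926 against vehicle, a log2 change of 1 was recovered for 0% of changed genes in fibroblasts, 1.5% in neutrophils, 1.5% in macrophages and 19.4% in endothelial cells. A change of 2 was recovered for 26.9%, 61.2%, 58.2% and 88.1% in the same order. A member that was not called may thus still have changed.

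Values in every library are given for the most abundant members in all kept cells, for Fos, Egr1, Atf3, Hspa1a and Hspa1b, and for the member of smallest p in each class; those given beyond that, such as members without overlap between groups, were chosen after their values were seen. The members and lists were chosen with earlier results of these data known. Part of the genotype is not reported here.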

Additional observations from a re-analysis of the deposited data

Results flagged for a closer look

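Dusp1, the MAP kinase phosphatase gene, had every IPI-926 library above every vehicle library in neutrophils (log2 fold change 1.06) and every IPI-926 library below every vehicle library in mesothelial cells (-0.66). Rhob did the same in neutrophils (0.99) and, on the low side, in perivascular cells (-0.33). The difference between the classes was not tested for either gene, and neither gene passed the test within a class. Within neutrophil clusters 8 and 19 the Dusp1 values of the groups overlapped.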

How the results depend on the processing

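No member was called in any of 157 alternative counts. Of the alternative fold changes of single named genes 309 kept their direction and side of the threshold, 5 changed sign and 1 passed where it had not. These cover the named genes only. Of all tested immediate-early members, 5 of 20 in B cells to 18 of 24 in endothelial cells kept their sign in every setting. For heat shock members this ran from 2 of 8 in ductal to 8 of 8 in endothelial cells. In all kept cells Junb reversed to 0.042 without IPI-926 replicate 3 (range over left-out libraries -0.347 to 0.042), Ier3 to -0.011 without vehicle replicate 2 (-0.011 to 0.286), Dnaja1 to -0.058 without vehicle replicate 2 and -0.043 without IPI-926 replicate 2 (-0.058 to 0.159), and Hspb1 to 0.34 without vehicle replicate 1 (-0.615 to 0.34). Gli1 in fibroblasts passed with DESeq2 alone (adjusted p = 9.702e-05). The cause was not tested.

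The count of all genes called moved more. With DESeq2 it was 127 in all kept cells, 5 in B cells, 3 in T cells, 1 in dendritic, 18 in ductal, 15 in endothelial, 45 in fibroblasts, 7 in macrophages, 26 in mesothelial, 7 in neutrophils and 4 in perivascular cells. With no filter on low counts it was 32 in B, 22 in T, 14 in dendritic, 5 in endothelial, 1 in mesothelial, 51 in neutrophil and 44 in perivascular cells. It was 0 in B and T cells with limma-voom, 0 in T cells and 1 in fibroblasts with equal cells per library, and 0 in neutrophils with doublets kept. Leaving out a library gave 0 to 8 in B cells, 0 to 3 in T cells, 0 to 4 in endothelial cells and 0 to 1 in ductal, macrophage, mesothelial and perivascular cells.

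Leaving out a library moved the immediate-early median from -0.414 to -0.207 in all kept cells and from 0.286 to 0.687 in neutrophils, and the B cell heat shock median from 0.228 to 0.61. As a mean over cells, the log2 ratio of the immediate-early share in all kept cells was -0.118.

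Among counts of members in a class against the others, scaling by library size alone gave, for immediate-early members, 6 higher and 7 lower in dendritic, 8 higher in ductal, 11 lower in endothelial, 1 lower in macrophage, 3 lower in mesothelial, and 5 higher and 5 lower in perivascular cells. For heat shock members it gave 2 lower in dendritic, 7 higher in ductal, 1 lower in fibroblast, 5 lower in macrophage, 0 higher and 5 lower in neutrophil, and 0 lower in perivascular cells. With the members among the clustering genes, heat shock counts were 1 lower in ductal, 1 lower in fibroblast and 1 higher in neutrophil cells, and immediate-early counts 4 lower in mesothelial and 4 higher in perivascular cells. Without clusters of 1 library, heat shock counts were 1 lower in ductal cells and 4 lower in fibroblasts. With doublets kept they were 1 higher in neutrophil and 2 lower in perivascular cells. Leaving out a library gave immediate-early counts of 5 to 9 higher in dendritic, 5 to 8 higher in ductal, 4 to 8 higher in fibroblast, 3 to 8 lower in mesothelial, 1 to 2 lower in neutrophil and 1 to 5 higher in perivascular cells. It gave heat shock counts of 0 to 1 lower in ductal, 1 to 3 higher in endothelial, 1 to 3 lower in fibroblast, 1 to 2 lower in macrophage, 1 to 2 higher in mesothelial, 1 to 2 higher in neutrophil and 0 to 1 lower in perivascular cells.

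No paired analysis was possible because the labels give no numbers that tie a treated to a vehicle mouse. With doublets kept there was no fibroblast test, and leaving out a vehicle library left too few dendritic libraries. Clustering and equal-cell settings do not apply to all kept cells, and limma-voom was not run there. Neutrophils had a median of 985 to 1798 UMIs per cell in the 6 libraries; the part of depth in their values was not tested.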
